A study of Homo sapiens with 9 samples.

Results

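Accessible chromatin was examined at 9 genes that carry interferon signals from the cell surface to the nucleus, in HEK293T cells lacking IGF2BP1, IGF2BP2 or IGF2BP3. The genes were IFNAR1, IFNAR2, IFNGR1, IFNGR2, IFNLR1, IL10RB, JAK1, TYK2 and STAT2, chosen by function from 20037 protein-coding genes of the RefSeq table. Every ATAC-seq peak overlapping the body of one of these genes, or lying within 10 kb of it, was taken. This gave 105 of the 194414 peaks in the 4 deposited lists, which merged into 32 of 71597 regions. JAK1 alone accounted for 17 regions, and the other 8 genes for 15.

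HEK293T is an established human embryonic kidney line that carries the SV40 large T antigen, and ATAC-seq marks open DNA by the insertion of sequencing adapters by the Tn5 transposase. The 4 groups were a control made with a guide that targets no mammalian gene (2 libraries, batches 2 and 3), an IGF2BP1 knockout (3 libraries, batches 1, 2 and 3), an IGF2BP2 knockout and an IGF2BP3 knockout (2 libraries each, batches 2 and 3). All cells were untreated, so no interferon was added. Each knockout was 1 clone grown from a single sorted cell after transient transfection of a plasmid with 3 guides, and the effects of clone and genotype cannot be told apart. Each group was deposited as 1 list of peak positions with no height or score, and the number of reads behind each list is unknown. No spread between libraries could be measured and no test was made. The control list held 39194 peaks with a median width of 771 bp. The IGF2BP1 knockout list held 50917 (834 bp), the IGF2BP2 knockout list 60262 (651 bp) and the IGF2BP3 knockout list 44041 (713 bp). Of 9 marker genes of HEK293T cells, 7 had a promoter peak in the control, IGF2BP1 knockout and IGF2BP2 knockout lists and all 9 in the IGF2BP3 knockout list. KRT8 was 1 of the 2 without a peak in the first 3 lists. NEFM was 1.52 times the control width in the IGF2BP1 knockout, and LHX1 0.3043 times in the IGF2BP2 knockout. Over all protein-coding genes, 66.6%, 68.7%, 68.2% and 67.5% had a promoter peak in the control, IGF2BP1, IGF2BP2 and IGF2BP3 knockout lists. The marker counts therefore say little about cell identity. Of 5 blood cell markers, 1, 2, 1 and 1 had a promoter peak in the same order. SPI1 had one near a gene end in every list, CD3E one in the IGF2BP1 knockout list, and PTPRC none in any. Of 3 markers of liver, muscle and pancreas, MYOD1 had peaks near a gene end in every list, 1.63 times the control width in the IGF2BP3 knockout, and ALB and INS had none.

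Interferons signal through paired receptor chains. Type I interferons bind IFNAR1 and IFNAR2, interferon gamma binds IFNGR1 and IFNGR2, and interferon lambda binds IFNLR1 with IL10RB, a chain that the interleukin-10 and interleukin-22 receptors also use. JAK1 sits on the inner tails of all 3 receptor types, paired with TYK2 at the type I and lambda receptors and with another JAK kinase at the interferon gamma receptor. These kinases phosphorylate STAT proteins, and STAT2 joins another STAT and IRF9 in the complex that binds interferon-stimulated response elements in target genes. Several of the receptor and kinase genes are active in most cell types, which allows many tissues to respond to interferon.

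The promoters of 4 genes are shown because the results below turn on them or because their sequences stand apart. Each is the 250 bases before the annotated start, 5′ to 3′ on the strand of the gene, from RefSeq (GRCh38.p14). In the first 3, capitals mark matches to the motifs searched, on either strand. In JAK1, capitals mark the 108 bases that no peak of the IGF2BP3 knockout list covers.
TYK2 (chr19:10380573-10380822, minus strand): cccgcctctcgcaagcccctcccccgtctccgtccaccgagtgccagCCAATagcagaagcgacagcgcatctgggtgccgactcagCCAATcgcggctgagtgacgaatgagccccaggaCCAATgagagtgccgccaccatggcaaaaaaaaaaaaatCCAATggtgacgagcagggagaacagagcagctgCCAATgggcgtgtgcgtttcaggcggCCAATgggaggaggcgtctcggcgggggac
IFNGR2 (chr21:33403163-33403412, plus strand): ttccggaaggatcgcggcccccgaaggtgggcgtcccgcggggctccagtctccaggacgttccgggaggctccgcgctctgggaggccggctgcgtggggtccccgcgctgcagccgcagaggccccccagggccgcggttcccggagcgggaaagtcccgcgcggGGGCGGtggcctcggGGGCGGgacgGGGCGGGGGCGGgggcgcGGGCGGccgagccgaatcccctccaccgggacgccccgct
IFNLR1 (chr1:24187290-24187539, minus strand): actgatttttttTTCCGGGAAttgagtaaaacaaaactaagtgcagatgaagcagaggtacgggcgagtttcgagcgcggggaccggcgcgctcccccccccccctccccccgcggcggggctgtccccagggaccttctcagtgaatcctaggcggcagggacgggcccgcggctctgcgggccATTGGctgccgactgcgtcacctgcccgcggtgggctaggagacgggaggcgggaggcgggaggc
JAK1 (chr1:65067747-65067996, minus strand): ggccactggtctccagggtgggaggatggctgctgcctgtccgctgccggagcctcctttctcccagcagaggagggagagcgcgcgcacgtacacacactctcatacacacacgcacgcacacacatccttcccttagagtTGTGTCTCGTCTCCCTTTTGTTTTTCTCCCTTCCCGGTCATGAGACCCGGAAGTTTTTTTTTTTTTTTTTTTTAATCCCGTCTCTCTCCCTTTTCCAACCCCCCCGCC

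The TYK2 promoter held 6 copies of CCAAT, the box bound by NF-Y, all on the strand of the gene. Only 43 of 35116 RefSeq promoter windows (0.122%), each of 250 bases before and 50 after a start, held as many on either strand. This comparison was chosen after the sequence had been seen. The IFNGR2 promoter held 5 copies of GGGCGG, the GC box bound by SP1, with a G+C content of 80%, and 1804 windows (5.14%) held as many. The window of the internal JAK1 start at 64966549, not shown, held more, with 6 copies on either strand and a G+C content of 74.67%. The 9 motifs were searched on both strands, and matches of a motif could overlap one another. The promoter table held 8 of the 9 genes, with 12 start windows in all; IFNAR2 was the gene without an entry. GGGCGG occurred in 8 of the 12 windows, at 7 genes, against 45% of all promoter windows. CCAAT occurred in 3 windows (34.6% of all), at IFNLR1, STAT2 and TYK2. TTCNNNGAA, the spacing of a gamma-activated site, occurred in 2 (7.66%), at IFNLR1 and IL10RB. GGAAGTG, an ETS core, occurred in 3 (11.2%), of which 2 are overlapping windows of IFNGR1 that share the match. The core of the interferon-stimulated response element was in 0 of 12 (3.57% of all), and so were TATAAA (11.5%), the AP-1 motif TGANTCA (7.71%), the cAMP response element (1.85%) and the NRF1 motif (1.24%). No match says only that these letters are not in this window. G+C content of the 12 windows ran from 41.67% at an internal start of JAK1 to 80% at IFNGR2, against a median of 58.67% over all promoters.

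All 9 genes had a promoter peak in all 4 lists. A promoter peak is one that reaches within 1 kb of an annotated start. For genes without a listed start, IFNAR2 among them, a peak within 1 kb of either gene end was counted. Over all protein-coding genes, 66.6% had one in the control list, 68.7% in the IGF2BP1 knockout list, 68.2% in the IGF2BP2 knockout list and 67.5% in the IGF2BP3 knockout list, and 64.2% had one in all 4. No promoter peak was therefore gained or missing at these genes. Of the genes that lacked a promoter peak in the control, 8.25% gained one without IGF2BP1, 8.7% without IGF2BP2 and 6.74% without IGF2BP3. Of those that had one, 1.03%, 1.97% and 2.08% lost it in the same order. The chains for all 3 types of interferon, both kinases and STAT2 thus had a promoter peak in the control as in the knockouts. Such a peak need not cover the start itself. The JAK1 starts at 65067746 and 64966936 lay inside a peak in the control list and outside the peaks of the IGF2BP3 knockout list.

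Width was the measure of size that the lists allowed. It is given in bp, and as a percentile among all peaks of the same list, since median widths differed between lists. IFNAR1, on chromosome 21, encodes the chain that binds TYK2. Its promoter peak spanned 33324328 to 33325598 in the control and was 1271 bp wide there, 1435 bp without IGF2BP1, 1345 bp without IGF2BP2 and 1303 bp without IGF2BP3. IFNAR2 encodes the chain with the higher affinity for type I interferons. The peak at its lower end was 1533, 1520, 1522 and 1504 bp wide in the same order. The IFNAR2 widths were nearly the same in all 4 lists. A neighbouring gene record, the IFNAR2-IL10RB readthrough, has the same lower end. The upper end of IFNAR2 lies within 1 kb of the IL10RB promoter peak, so that peak counts for both genes.

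IFNGR1, the ligand-binding chain of the interferon gamma receptor, was 1234 bp wide at its promoter in control cells, 1309 bp without IGF2BP1, 1315 bp without IGF2BP2 and 1568 bp without IGF2BP3. The last was the widest, at 1.27 times the control, and stood at percentile 94.8 of its list against 83.6 in the control. It reached further into the gene, from 137218163 on chromosome 6, against 137218516 in the control. IFNGR2, the second chain of that receptor, was 1555 bp wide in control cells, 1911 bp without IGF2BP1, 1545 bp without IGF2BP2 and 1685 bp without IGF2BP3. Its IGF2BP1 knockout peak was 1.23 times the control. The GC boxes of IFNGR2 shown above lay inside the peak in all 4 lists.

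IFNLR1, the chain particular to interferon lambda, varied most. Its promoter peak was 1088 bp wide in control cells, 1712 bp without IGF2BP1, 1120 bp without IGF2BP2 and 862 bp without IGF2BP3. The control and IGF2BP2 knockout peaks were close in width, the IGF2BP1 knockout peak was 1.57 times and the IGF2BP3 knockout peak 0.792 times the control. Width percentiles were 75.7, 95.0, 85.5 and 63.8. The IGF2BP1 knockout peak extended into the gene, from 24186415 on chromosome 1, where the control peak began at 24187002; their upper ends were 24188126 and 24188089. The second site of the gene, 36.7 kb from its start and past its far end, followed the same order in bp, at 678, 892, 757 and 472 bp. IL10RB measured 1037, 1169, 899 and 1059 bp, and its peak also covered the start of the divergent transcript IL10RB-DT.

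**Figure D1:**
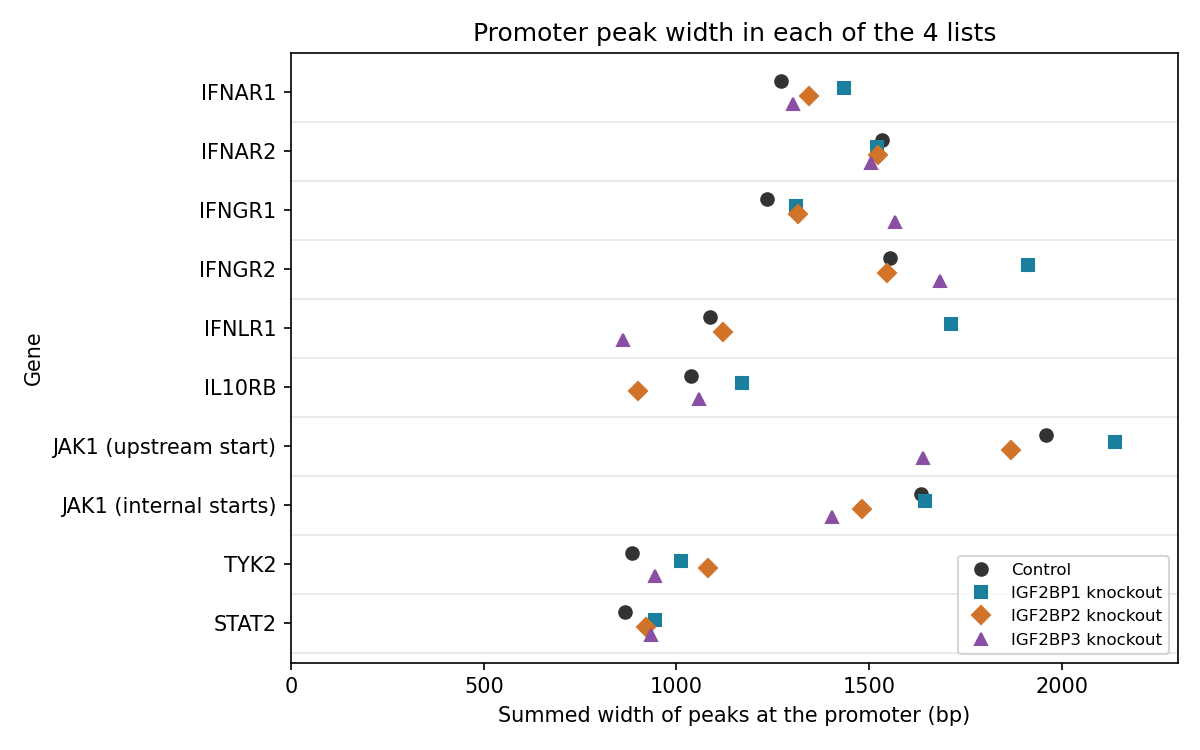
Width of the promoter peaks of the 9 genes (x axis, bp, summed where 2 peaks lay at a start; JAK1 has 1 row for its upstream start and another for its internal starts) in each of the 4 lists, 1 point per list and no error since each group is 1 list. IFNLR1 spreads most, from 862 to 1712 bp, and IFNAR2, plotted at its lower end alone, lies between 1504 and 1533 bp.

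TYK2, the kinase bound to IFNAR1, had one of the narrower promoter peaks, at 884 bp in control cells, 1013 bp without IGF2BP1, 1083 bp without IGF2BP2 and 944 bp without IGF2BP3. All 3 knockout peaks were wider than the control peak, the IGF2BP2 knockout peak by 1.23 times. The window with the 6 CCAAT copies lay inside the peak in all 4 lists. A small site 8.6 kb upstream of the start, 468, 532 and 496 bp wide in the control, IGF2BP1 knockout and IGF2BP2 knockout lists, had no counterpart in the IGF2BP3 knockout list. Of 4081 control peaks whose width differed by at most 50 bp, 39.99% also had none there. STAT2 measured 866, 944, 921 and 934 bp, and its peak overlapped the neighbouring gene APOF. The other site near STAT2 was the promoter of PAN2, a deadenylase subunit gene, at 1272, 1226, 971 and 1189 bp. IL23A, whose start also lies in the STAT2 window, had no peak in any list.

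A width ratio of at least 1.5 was called. In the IGF2BP1 knockout, 1 of the 9 genes was called wider, IFNLR1, against 6.36% of 13207 protein-coding genes with a promoter peak in both lists, and 0 were called narrower (0.901%). In the IGF2BP2 knockout, 0 were called wider (2.58%) or narrower (4.16%), and in the IGF2BP3 knockout likewise 0 (2.57% and 3.83%). Without regard to size, 9 of 9 were wider in the IGF2BP1 knockout, where 76.2% of all genes were, 5 of 9 in the IGF2BP2 knockout (48.8%) and 6 of 9 in the IGF2BP3 knockout (48.8%). With IFNAR2 taken at its lower end alone, 8 of 9 were wider in the IGF2BP1 knockout. Median log2 ratios over the 9 genes were 0.17, 0.04 and 0.04, against 0.10, -0.00 and -0.00 over all genes. These counts lay near the background. With widths divided by the median width of the list, the medians over the 9 genes became 0.06, 0.29 and 0.15, so the order of the knockouts depended on the scaling. Dividing widths by the median of the list took IFNLR1 to a log2 ratio of 0.54, under the fold called.

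Likeness of pattern was measured as the distance over 4 lists between log2 promoter widths, each relative to the list's median over genes, among 12864 other genes with a promoter peak in all lists. IFNLR1 and IFNGR1 had the largest spread of the 9 genes, at percentiles 91.14 and 68.42 of all genes. Nearest to IFNLR1 were ELAPOR1 (0.162 log2 units; 1084, 1580, 1090 and 928 bp), ASIC1 (0.172) and NLRC5 (0.181), a regulator of MHC class I genes. Nearest to IFNGR1 were TMEM9B (0.072; 1260, 1321, 1295 and 1504 bp) and TP53I11 (0.079). With 4 points per gene these distances are a description.

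JAK1 is the kinase used by all 3 receptor types, and by far the longest of the 9 genes, at 234.5 kb on the minus strand of chromosome 1. Its window held 11 peaks in the control list, 16 in the IGF2BP1 knockout list, 16 in the IGF2BP2 knockout list and 10 in the IGF2BP3 knockout list. The density was 4.32, 6.29, 6.29 and 3.93 peaks per 100 kb, against 1.892, 2.305, 2.588 and 1.987 over the windows of all protein-coding genes. Over the windows of the other 8 genes together it was 3.09, 3.61, 3.35 and 3.35. The lists differ in length, and JAK1 peaks were not counted apart in lists of equal length. The gene has 3 annotated starts, 1 at 65067746 and 2 internal ones at 64966936 and 64966549.

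At the upstream start, the control had 1 peak of 1958 bp, from 65066376 to 65068333, and the IGF2BP1 knockout 1 peak of 2139 bp, from 65066242 to 65068380. In the IGF2BP2 knockout there were 2 peaks, of 1303 and 566 bp, with a gap of 250 bp. In the IGF2BP3 knockout there were likewise 2, of 1290 and 349 bp, with a gap of 329 bp between 65067525 and 65067855. The start itself lay inside a peak in the control, IGF2BP1 knockout and IGF2BP2 knockout lists and in the gap in the IGF2BP3 knockout list. The capitals in the JAK1 sequence above are the bases of the gap upstream of the start, which hold a long run of T. Taken from the first to the last base, the site spanned 1958, 2139, 2119 and 1968 bp. The internal starts shared 1 nearby peak in each list, of 1635, 1644, 1481 and 1403 bp. In the IGF2BP3 knockout list its upper end was 64966925, which left the internal start at 64966936 just outside it. In the other lists both internal starts lay inside the peak. Summed, the JAK1 promoter peaks stood at percentile 99.22 or above among genes with a promoter peak in each of the lists. This sum joins the upstream and the internal starts, which raises the rank. Among all peaks of a list, the widest peak at the upstream start stood at percentiles 98.46, 98.84, 91.54 and 87.9. The peak at the internal starts stood at 95.22, 93.89, 95.25 and 91.37.

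**Figure D2:**
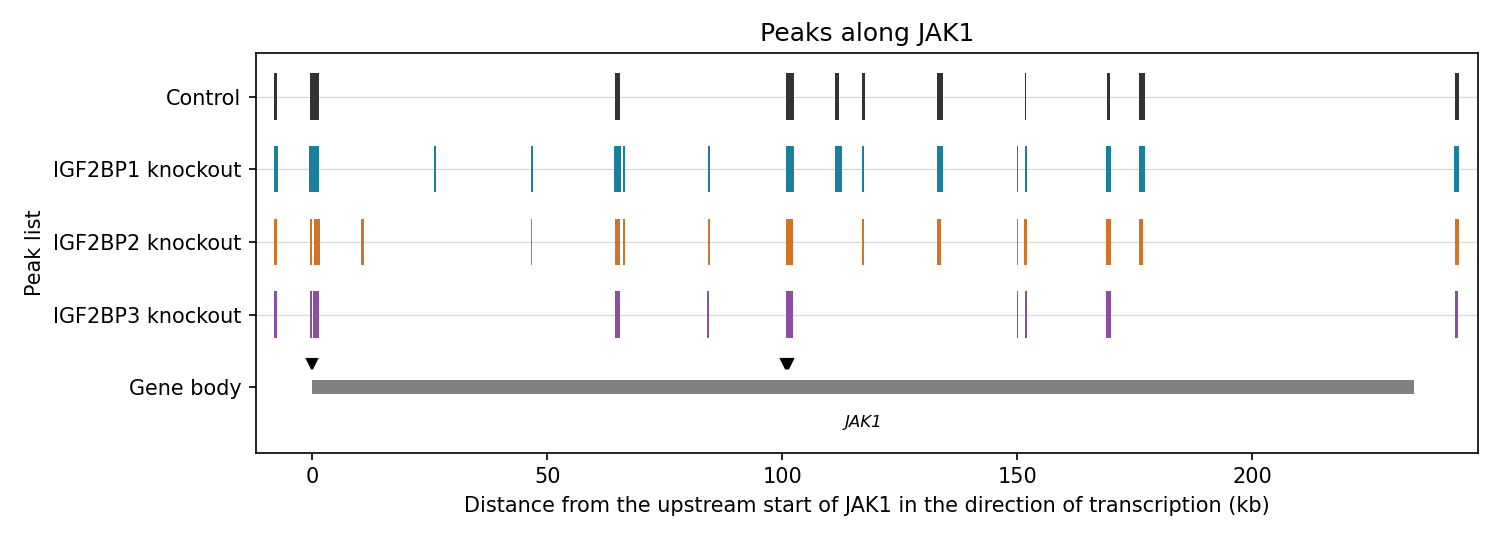
Peaks of the 4 lists along JAK1, drawn to scale against distance from its upstream start in the direction of transcription (x axis, kb); triangles mark annotated starts and the grey bar the gene body. The IGF2BP3 knockout row has no peak at 112.0, 117.2, 133.6 and 176.5 kb, where the control and IGF2BP1 knockout rows have one.

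Inside JAK1, 2 sites wider than the median of each list that held them were missing from the IGF2BP3 knockout list. The first, 176.5 kb downstream of the upstream start, ran from 64890579 to 64891892 in the control, a width of 1314 bp and percentile 87.0 of the list. It was 1261 bp wide in the IGF2BP1 knockout (percentile 81.8) and 1017 bp in the IGF2BP2 knockout (80.8). No peak of the IGF2BP3 knockout list overlapped it. Of 1516 control peaks of like width (at most 50 bp apart), 39 (2.57%) had no counterpart in the IGF2BP3 knockout list. The second, at 133.6 kb, was 1156 bp wide in the control (64933582 to 64934737), 1274 bp without IGF2BP1 and 751 bp without IGF2BP2, and again had no counterpart in the IGF2BP3 knockout list. Of 2160 control peaks of like width, 74 (3.43%) had none. Control peaks as wide as these, promoters included, were seldom missing from that list. Of control regions of any width away from promoters, 28.1% were missing, over all protein-coding windows. No rate was taken for sites both as wide and away from promoters. The 2 sites were named because a list lacked them, so these rates do not show that their absence was unusual.

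The site at 112.0 kb was picked out after its values were seen. It was 714 bp wide in control cells and 1466 bp without IGF2BP1, 2.05 times the control, at percentiles 43.4 and 89.8. Neither the IGF2BP2 knockout list nor the IGF2BP3 knockout list had a peak there, as for 190 of 4735 control peaks of like width (4.01%). The site at 117.2 kb was 651 bp wide in control cells, 485 bp without IGF2BP1 and 527 bp without IGF2BP2, and was also missing from the IGF2BP3 knockout list. Here 21.6% of control peaks of like width were missing as well, so this absence was common for its size.

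Counted together, 15 regions of the JAK1 window lay away from its promoters, and 9 of them were in the control list. The IGF2BP1 knockout list lacked 0 of these 9, the IGF2BP2 knockout list 1 and the IGF2BP3 knockout list 4. With each list held to its widest peaks, as many as the shortest list, the numbers were 2, 3 and 4. Over all protein-coding windows, 14.8%, 12.5% and 28.1% of such control regions were missing from the 3 lists. Of the 6 regions not in the control list, 5, 5 and 2 were in the 3 knockout lists, against 50.8%, 72.2% and 33.9% over all windows. Those regions were small, from 267 to 576 bp. The 2 at 150.1 and 84.4 kb were in all 3 knockout lists, with widths of 378, 277 and 402 bp at the first and 576, 445 and 498 bp at the second. The second overlapped the long non-coding gene LINC01359 and the pseudogene SLC2A3P2.

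Some JAK1 sites were found in every list. The site at 64.9 kb, over the start of LINC01359, was steady at 1169, 1389, 1097 and 1166 bp. The site at 169.5 kb was wider in all 3 knockouts than in the control, at 1023, 943 and 955 bp against 741 bp. The site at 151.9 kb did the same, at 551, 445 and 541 bp against 380 bp. The site 7.7 kb upstream of the gene was 546 bp wide in control cells, 917 bp without IGF2BP1, 562 bp without IGF2BP2 and 532 bp without IGF2BP3. The flanking site past the far end of JAK1 lay within RAVER2 and measured 843, 876, 708 and 622 bp. Of the JAK1 regions held by both lists and away from promoters, 2 of 9 were called wider in the IGF2BP1 knockout (15% of all such regions) and 0 narrower (1.38%). In the IGF2BP2 knockout, 0 of 8 were called wider (6.26%) and 1 narrower (7.41%), the site at 133.6 kb. In the IGF2BP3 knockout, 0 of 5 were called wider (5.07%) or narrower (11.1%).

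The surroundings of JAK1 also lacked control peaks in the IGF2BP3 knockout list. In the 1 Mb at lower coordinates, 9 of 21 control peaks (42.86%) had no counterpart there, and in the 1 Mb at higher coordinates 6 of 22 (27.27%). In the JAK1 window it was 4 of 11 (36.36%), over chromosome 1 20.78% and over the whole list 18.48%. In the IGF2BP1 knockout list the window and its neighbours lacked 0, 3 and 2 of the same control peaks, and in the IGF2BP2 knockout list 1, 4 and 0. Over chromosome 1 those lists lacked 11.21% and 8.529%, and over the whole list 10.06% and 8.802%, so the stretch at lower coordinates was above them (14.29% and 19.05%) in these lists too. The part of this wider stretch in the JAK1 result was not tested.

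**Figure D3:**
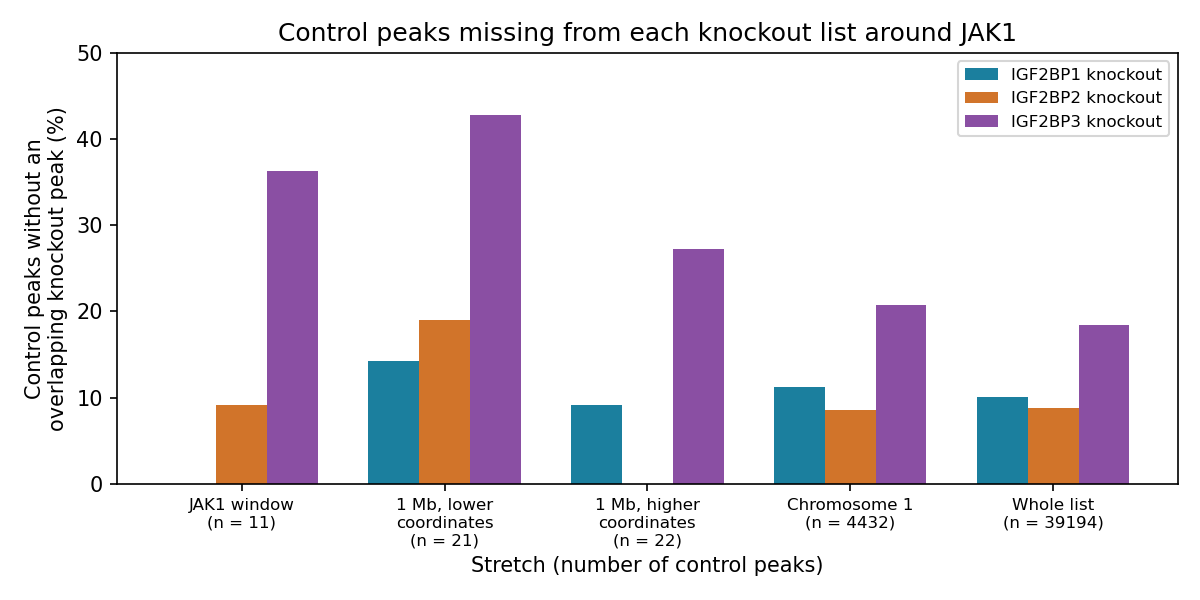
Percentage of control peaks with no overlapping peak in each knockout list (y axis), in the JAK1 window, the 1 Mb on either side, chromosome 1 and the whole list, with the number of control peaks under each set of bars. The IGF2BP3 knockout bars stand at 36.36%, 42.86% and 27.27% in and around JAK1, against 18.48% for the whole list.

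The receptor genes IFNAR2, IL10RB, IFNAR1 and IFNGR2 lie side by side on chromosome 21. Their windows held 5 peaks in the control list, 7 in the IGF2BP1 knockout list, 6 in the IGF2BP2 knockout list and 7 in the IGF2BP3 knockout list. All 5 control peaks had a counterpart in every knockout list. They were the 4 promoters and a site 37.0 kb from the first start of IFNAR1, just past its far end, of 1004, 1095, 1092 and 986 bp. Of all control peaks, 10.06%, 8.802% and 18.48% had none without IGF2BP1, IGF2BP2 and IGF2BP3. Of genes with a control promoter peak, 1.03%, 1.97% and 2.08% lost it, the closer measure for the 4 promoters. The 0 of 5 is near the background. The 3 additional sites were small, and 2, 1 and 2 of them were in the 3 knockout lists, against the shares of 50.8%, 72.2% and 33.9% given above. A site 2.3 kb before the lower end of IFNAR2 was in the IGF2BP2 knockout (350 bp) and IGF2BP3 knockout (492 bp) lists. A site 20.8 kb inside IL10RB was in the IGF2BP1 knockout (469 bp) and IGF2BP3 knockout (572 bp) lists. A peak of 514 bp past the far end of IFNGR2, within TMEM50B, was in the IGF2BP1 knockout list alone. Chromosome 21 as a whole held 1.232% of the control list and 1.261%, 1.185% and 1.617% of the IGF2BP1, IGF2BP2 and IGF2BP3 knockout lists.

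**Figure D4:**
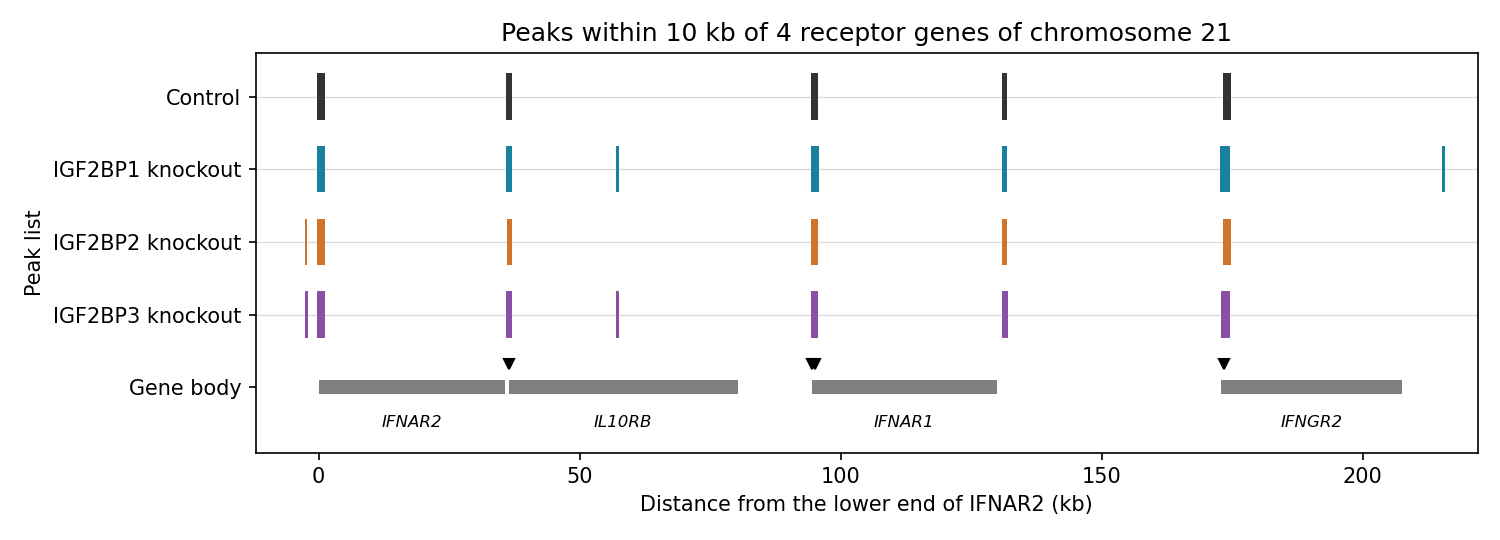
Peaks within 10 kb of 4 neighbouring receptor genes of chromosome 21 in the 4 lists, drawn to scale against distance from the lower end of IFNAR2 (x axis, kb); triangles mark annotated starts and grey bars gene bodies. Peaks farther than 10 kb from these genes are not drawn. The 5 control sites recur in every row, and 3 small sites do not.

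Over all 9 genes, 18 of 32 regions (56.25%) were in all 4 lists, against 48.9% of regions in the windows of all protein-coding genes. JAK1 contributed 7 of 17 and the other genes 11 of 15. There were 3 regions in 1 list (9.375%, against 23.61% in all windows), 5 in 2 (15.62% against 14.33%) and 6 in 3 (18.75% against 13.18%). Of the last, 4 were in every list but the IGF2BP3 knockout, 3 of them in JAK1, against 5.259% of regions in all windows. No region was in the control list alone (2.093%), and 2 were shared by the 3 knockouts but absent from the control (5.651%). IFNGR1 had its promoter peak as the 1 site in each list, in one of the shorter windows (41.9 kb).

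The other genes of the pathway were described by the same promoter measure. They formed a list of 48 genes chosen by function, of which 18 had a promoter peak in the control list, 20 in the IGF2BP1 knockout list, 21 in the IGF2BP2 knockout list and 18 in the IGF2BP3 knockout list. The shares over all genes are those given above. Of 21 interferon genes, the ligands, 0, 1, 3 and 0 had one. IFNL3 had peaks of 549 bp in the IGF2BP1 knockout and 566 bp in the IGF2BP2 knockout, and IFNL2 a peak of 494 bp in the IGF2BP2 knockout. These are near-identical copies, so reads could be placed at either. IFNW1 had a peak of 475 bp near a gene end in the IGF2BP2 knockout. None of the 5 related receptor chains (IL10RA, IL20RA, IL20RB, IL22RA1 and IL22RA2) had a promoter peak in any list, unlike the 6 interferon receptor genes.

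Among 9 other kinases, STAT genes and IRF9, 7, 8, 6 and 7 had a promoter peak. STAT5B, which carries growth hormone and cytokine signals, had a peak of 1312 bp in control cells, 1537 bp without IGF2BP1 and 1820 bp without IGF2BP3, and none without IGF2BP2. There, the nearest peak lay 9.02 kb from the start at 42276391 on chromosome 17. Of 1529 control peaks of like width, promoters or not, 13 (0.85%) were missing from the IGF2BP2 knockout list alone. Of all genes with a promoter peak in the control, 1.97% had none in that list. STAT5B was named because a list lacked its peak, so these rates do not show that its absence was unusual. JAK3, a kinase mainly of blood cells, had a peak of 430 bp in the IGF2BP1 knockout alone. Of 13 inhibitors, among them the SOCS, PIAS and phosphatase genes, 11, 11, 12 and 11 had a promoter peak. PTPN6 was the 1 gained, with 255 bp in the IGF2BP2 knockout. Of the 11 inhibitor promoters found in both lists, 1 was called wider in the IGF2BP1 knockout (6.36% of all genes), and no other promoter of the 48 genes was called in any knockout.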

How the data were processed

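ATAC-seq was made on 100000 cells per reaction with 5 µL of Tn5, per the labels' protocols. The authors deposited 1 list per group with 3 columns, the chromosome, start and end of each peak, and no score. Per the submitters' processing notes, fastp 0.24.1, BWA 0.7.17, MACS2 3.0.0 and bedtools were used with build GRCh38; thresholds, any offset for the transposase and the combining of libraries are not given in the sources used here. Lists from more reads or a looser threshold would hold more small peaks.

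Positions were counted from 1. Starts and sequences came from the RefSeq promoter table and gene ends from the RefSeq gene table (GRCh38.p14); 15843 of 20037 protein-coding genes had a listed start. Exons, introns and UTRs were not determined. Peaks sharing at least 1 bp were merged into regions. Percentiles are ranks of width within a list. Genes were named as all members, neighbours with a start in a member window, pathway genes with a promoter peak in some lists or called in all 3 knockouts, nearest patterns, and partial regions at least as wide as the list median; 1 nearest gene is not reported here. The members, lists and rules were chosen with earlier results of these data known. Python 3.11.15, numpy 2.4.6 and pandas 2.3.3 were used, and the functions were tested on simulated data. Alternatives covered stricter lists, merging, flanks, promoter size, overlap and width scaling.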

Additional observations from a re-analysis of the deposited data

How the results depend on the processing

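No paired analysis was possible because each group is 1 list that combines its libraries; for the same reason no library or batch could be left out. The depth behind the lists is unknown, and with it how many small sites went undetected. All 9 genes kept a promoter peak in every list under each alternative run. The 4 JAK1 control regions missing from the IGF2BP3 knockout list also numbered 4 under all 5 alternatives. With each list held to its widest peaks, as many as the shortest list, 2 were missing from the IGF2BP1 knockout and 3 from the IGF2BP2 knockout list, and the regions near the 9 genes in 1, 2 and 3 lists numbered 6, 2 and 2. Without peaks under the 25th width percentile, 1 JAK1 region was missing from the IGF2BP1 knockout list and 2 regions were in 2 lists. Dividing promoter widths by the list median gave median log2 ratios of 0.06 without IGF2BP1, 0.29 without IGF2BP2 and 0.15 without IGF2BP3, and 0 genes called wider in the IGF2BP1 knockout. At the smaller fold tried, 1 gene was wider and 1 narrower in the IGF2BP3 knockout. Peaks near the 9 genes numbered 23, 30, 29 and 23 in the control, IGF2BP1, IGF2BP2 and IGF2BP3 knockout lists. In lists held to their widest peaks they numbered 23, 20, 20 and 22 in the same order. The larger numbers of the IGF2BP1 and IGF2BP2 knockout lists were thus not kept, although each change lay within the tolerance for counts. Of 165 comparisons of main values with alternatives, 152 stayed within the tolerance (1.5 times for counts, 0.1 for log2 values).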
